A study of Mus musculus with 8 samples.

Results

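The imprinted Dlk1-Dio3 locus on the distal part of mouse chromosome 12 holds one of the largest groups of miRNA genes in mammals. In the NanoString panel used here it was covered by 62 probes, chosen by the number in the miRNA's name, of 566 probes for mouse miRNAs. All 62 probes matched miRNA genes between Dlk1 and Dio3 in RefSeq (GRCm38.p6), and they stood for 51 distinct genes of the 61 that RefSeq places there. miRNAs were counted by nCounter hybridization without amplification in 6 pooled RNA samples from mouse retina. All mice carried an Rlbp-Cre:tdTomato genotype (Rlbp-CreER with a floxed stop before tdTomato), in which tamoxifen (75 mg/kg) switches on the red reporter in cells that use the Rlbp promoter, in the retina the Müller glia (MG). Rlbp is also used by pigmented and ciliary epithelium, which the study dissected away.

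The fresh samples came from FACS. Adult MG were the tdTomato-positive cells of 40 pooled adult retinas, and adult neurons were the tdTomato-negative fraction of the same sort, a mixture of every unlabelled retinal cell in which rods predominate. P11 MG and P11 neurons were the same fractions from 32 pooled retinas of P11/12 mice. The remaining samples were MG cultures from 20 pooled P11 retinas, grown unsorted with serum and EGF, passaged at 6 days in vitro (DIV) and collected at 8 DIV or 14 DIV from a split experiment. The age field of these cultured samples names the other time point than their titles and descriptions do, and the titles were followed. The column names of the raw counts give the same time points as the titles. The direction of every difference between 8 and 14 DIV rests on these labels. Each condition had 1 pooled sample, so no p-value was computed, every interval below covers counting error only, and the spread between animals, sorts or cultures is unknown. In sorted or cultured bulk samples, fewer cells of a type and less RNA per cell cannot be told apart.

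The locus is imprinted: the protein-coding genes Dlk1 (a Notch-ligand-like protein), Rtl1 (a retrotransposon-derived protein) and Dio3 (the deiodinase that inactivates thyroid hormone) are read from the paternal chromosome, and the noncoding RNAs and all miRNAs from the maternal one. The noncoding RNAs lie in the order Meg3, the transcript antisense to Rtl1, Rian and Mirg, and the miRNAs are cut from these long transcripts. The miRNAs are best known from the embryo, the placenta and the brain, where several of them act in neurons. A miRNA finds its target mRNAs mainly through its seed, bases 2 to 8 from its 5′ end.

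The members above background came from 2 stretches of the locus. The mature sequences of the members that carry the results are shown here from RefSeq (GRCm38.p6, chromosome 12, plus strand), with the seed in capitals, so that members can be told apart by the bases that pair with targets. The first set, the miRNAs read antisense to Rtl1, lies between chr12:109590447-109590537 (Mir431) and chr12:109595327-109595388 (Mir136), inside the span of Rtl1 (chr12:109564900-109604418). These miRNAs pair fully with Rtl1 mRNA in the mouse.
miR-431-5p: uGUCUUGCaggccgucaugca
miR-433-3p: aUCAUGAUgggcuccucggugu
miR-127-3p: uCGGAUCCgucugagcuuggcu
miR-434-5p: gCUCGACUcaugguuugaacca
miR-434-3p: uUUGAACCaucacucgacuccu
miR-136-5p: aCUCCAUUuguuuugaugaugg

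The second set belongs to the miR-379/miR-410 cluster, from chr12:109709060-109709125 (Mir379) to chr12:109743715-109743795 (Mir410), which overlaps Mirg (chr12:109734981-109749458) at its far end. The members shown are among those named most often in the results, with miR-300 added as the near seed neighbour of miR-381, in order along the chromosome.
miR-329-3p: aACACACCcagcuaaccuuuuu
miR-543-3p: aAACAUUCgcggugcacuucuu
miR-495-3p: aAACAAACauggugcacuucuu
miR-376b-3p: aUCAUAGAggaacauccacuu
miR-376a-3p: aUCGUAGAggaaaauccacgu
miR-300-3p: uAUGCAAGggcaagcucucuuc
miR-381-3p: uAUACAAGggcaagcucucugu
miR-382-5p: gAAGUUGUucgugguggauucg
miR-369-3p: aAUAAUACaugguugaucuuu
miR-410-3p: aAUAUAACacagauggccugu

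Of the 26 members above background in at least 1 sample, 25 had a mature sequence by name or assigned arm, and those carried 25 distinct seeds. No seed was shared among these 25. The nearest seeds, counting positions from 1 at the 5′ end, were those of miR-300-3p and miR-381-3p, which differ by G4A, and of miR-376a-3p and miR-376b-3p, which also differ by G4A. The third such pair, miR-379-5p (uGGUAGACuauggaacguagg) and miR-411-5p (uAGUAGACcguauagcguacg), differs by G2A. A seed shared with a miRNA gene elsewhere was found for miR-329-3p, whose seed is also that of miR-362-3p from the X chromosome (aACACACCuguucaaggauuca), and for miR-495-3p, whose seed is also that of miR-1192 from chromosome 19 (aAACAAACaaacagaccaaauu).

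The labels were set against marker miRNAs. The summed raw count of 8 miRNAs of retinal neurons and photoreceptors was 171835 in adult neurons and 68032 in P11 neurons, against 1688 to 3042 in the 4 MG samples. The 7 miRNAs named for MG, which the study chose on these samples and which are therefore no independent check, summed to 127399 to 443856 in the MG samples and to 11349 and 30627 in the adult and P11 neurons. miR-211, which the study names as high in the pigment epithelium, read 3772 and 2680 counts in the adult and P11 neurons and 100 to 329 in MG. Which cells of the neuronal fractions gave the miR-211 counts was not tested. The 2 red blood cell miRNAs summed to 1710 and 428 in the neurons and 37 to 52 in MG. A list of 5 mesenchymal miRNAs (miR-143, miR-145, miR-199a-3p, miR-199a-5p and miR-214) was at 180 to 227 counts in the fresh samples, 3524 at 8 DIV and 17643 at 14 DIV. The raw totals over mouse miRNAs ran from 273572 in P11 neurons to 695390 in adult MG, and the sum of the ligation controls was 6888 in P11 neurons against 16612 to 25941 elsewhere.

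In every sample most locus miRNAs were at or below the detection limit, as were most mouse miRNAs of the panel. A miRNA was called above background when its raw count passed the mean plus 2 SD of the 8 negative control probes of that sample. That limit was 71.7 counts in adult MG, 69.9 in adult neurons, 106 in P11 MG, 87.0 in P11 neurons, 70.7 at 8 DIV and 52.8 at 14 DIV. The highest locus miRNA of any sample was miR-382 at 14 DIV with 533 raw counts, where miR-125b-5p, one of the abundant MG miRNAs, had 59742.

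Above background were 11 of 62 locus probes in adult MG (17.7%), 13 in adult neurons (21.0%), 9 in P11 MG (14.5%), 14 in P11 neurons (22.6%), 13 at 8 DIV (21.0%) and 24 at 14 DIV (38.7%). Over all 566 mouse miRNAs the share above background was 30.2% in adult MG, 25.1% in adult neurons, 26.3% in P11 MG, 22.8% in P11 neurons, 32.9% at 8 DIV and 32.2% at 14 DIV. The locus share was below the panel's in both fresh MG samples, in adult neurons and at 8 DIV, and almost equal to it in P11 neurons. At 14 DIV more of its miRNAs were detected than in any other sample, and 8 of them were above background there alone. The 14 DIV limit was also the lowest. Of the 8, miR-379, miR-667, miR-411 and miR-134 had 60 to 65 counts at 14 DIV, under the limits of all other samples. The panel's share above background at 14 DIV alone was not counted.

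After subtraction of the mean negative control, the 62 probes together gave 932 counts in adult MG, 1435 in adult neurons, 750 in P11 MG, 1768 in P11 neurons, 1347 at 8 DIV and 3543 at 14 DIV. The standard error of the negative control mean, times 62 probes, came to 317 to 607 counts. The locus held 0.138% of the background-subtracted mouse miRNA counts in adult MG, 0.434% in adult neurons, 0.164% in P11 MG, 0.709% in P11 neurons, 0.319% at 8 DIV and 0.938% at 14 DIV. The share was higher in neurons than in fresh MG at both ages. It was highest at 14 DIV after this subtraction, and without any subtraction it was highest in P11 neurons (1.61% against 1.28% at 14 DIV). The share depends on the few abundant miRNAs that make up the total, which differ between MG and neurons.

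**Figure D1:**
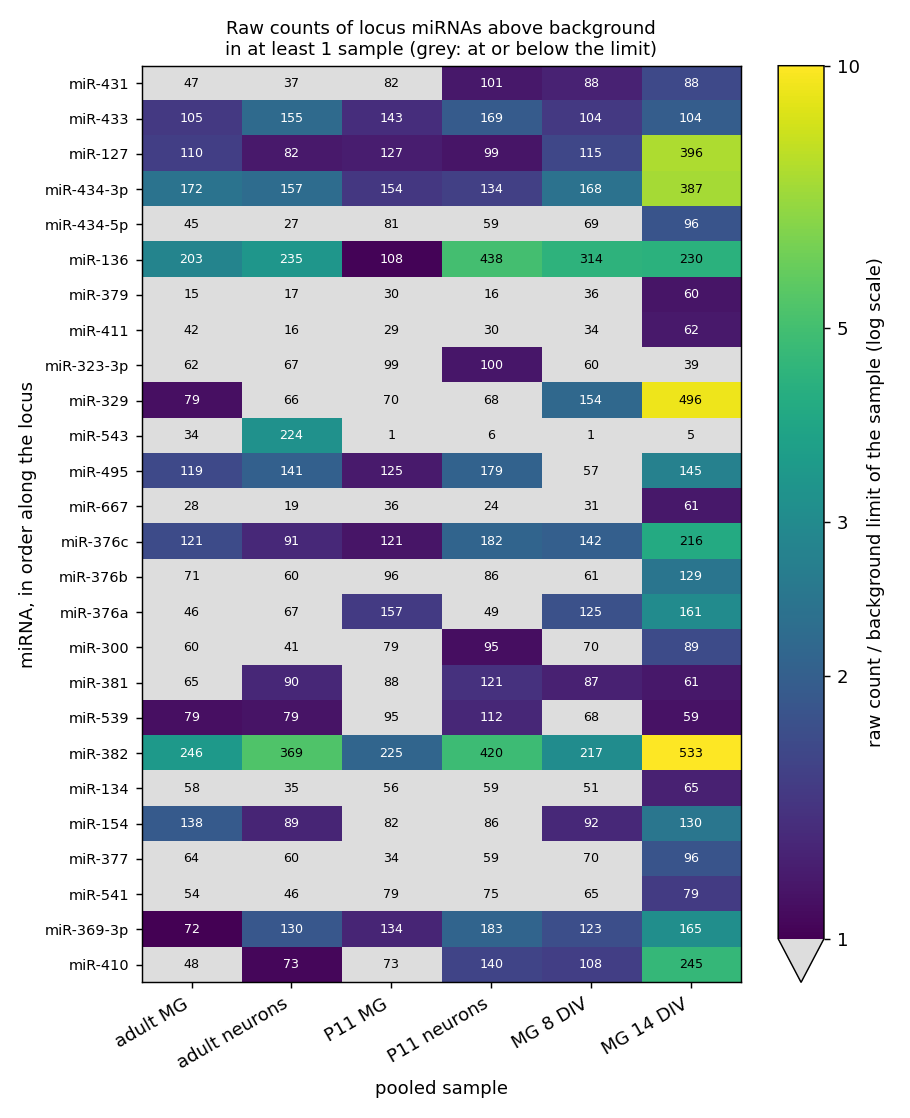
Raw nCounter counts (numbers in the cells) of the 26 locus miRNAs above background in at least 1 of the 6 pooled samples, in order along the chromosome; the colour gives the raw count over the background limit of the sample on a log scale, and grey cells are at or below the limit. The 14 DIV column has 24 coloured cells and the P11 MG column 9.

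Detection of the members was uneven along the locus. None of the 10 probes on the Meg3 side (miR-770, miR-673, miR-493, miR-337, miR-540 and miR-665) and none of the 3 probes on the Rian side (miR-341, miR-1188 and miR-370) was above background in any sample. All 6 probes from miR-431 to miR-136 were above background in at least 1 sample, as were 20 of the 43 probes of the miR-379/miR-410 cluster. The panel's share above background in at least 1 sample was not counted. The annotated span of Rtl1 also holds 8 of the Meg3-side probes, so that position inside Rtl1 did not by itself go with detection. Outside the chosen numbers, miR-432 between miR-434 and miR-136 was under the limit in every sample, and miR-1906, with 1 of its genes inside Meg3 and a copy elsewhere, was above it in every sample. The other 36 probes were above background in no sample, the highest of them being miR-654-3p with 100 raw counts in a sample whose limit was above that. At these depths a low level of those 36 miRNAs was not detectable.

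The background-subtracted sum of the 6 probes antisense to Rtl1 was 450 counts in adult MG, 502 in adult neurons, 393 in P11 MG, 745 in P11 neurons, 642 at 8 DIV and 1158 at 14 DIV. The sum of the 43 cluster probes was 591, 1026, 444, 1080, 747 and 2424 counts in the same samples. Both background-subtracted sums were highest at 14 DIV. They were lowest in P11 MG, while without subtraction they were lowest in adult MG (682 and 2252 counts against 695 and 2610). These sums, like the raw counts of the single members below, are not scaled to the sample totals. Probes differ in hybridization efficiency, so these sums compare samples and not stretches.

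**Figure D2:**
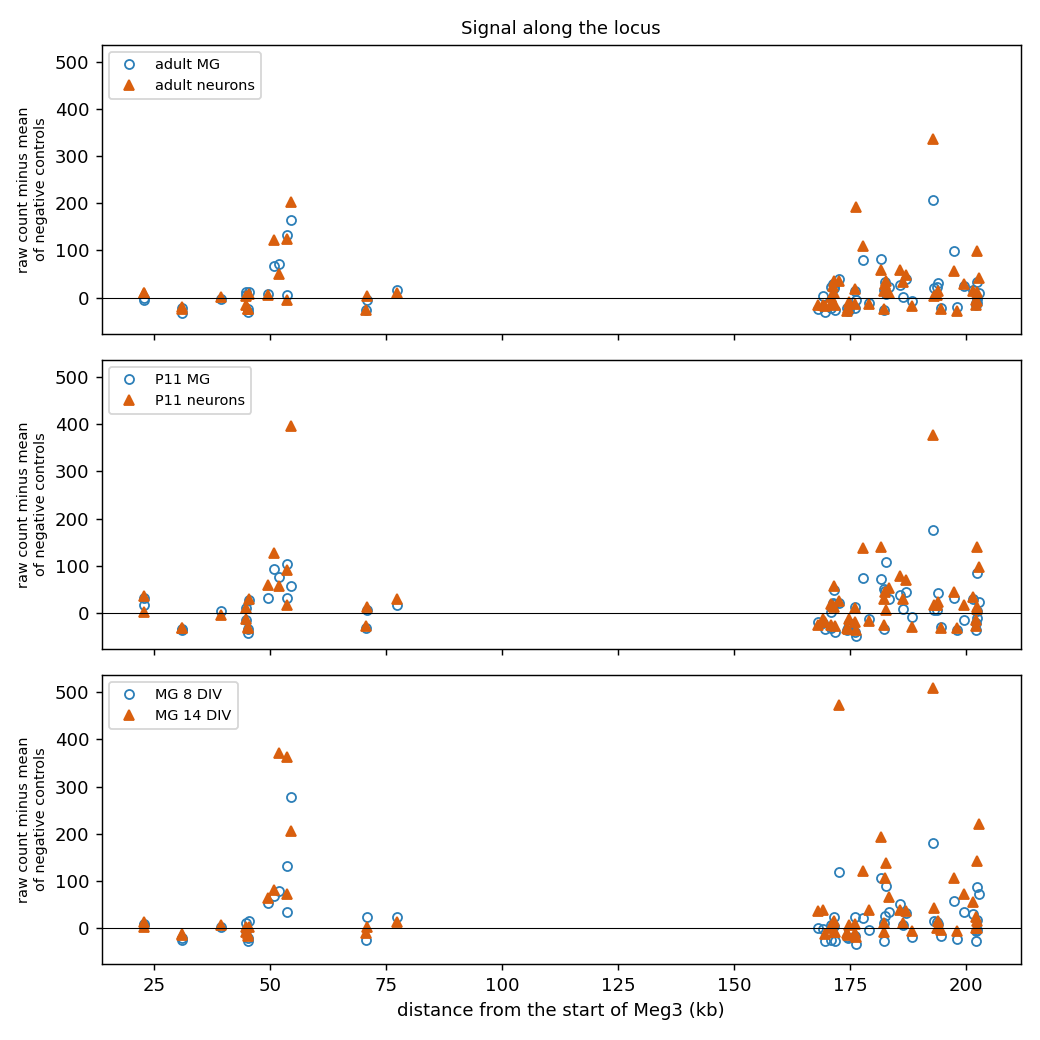
Background-subtracted count (y axis; the mean negative control taken from the raw count) of the 62 locus probes against the distance of the miRNA gene from the start of Meg3 (x axis, kb), with adult MG and neurons in the top panel, P11 MG and neurons in the middle and the cultured MG in the bottom panel. Signal lies in the stretch antisense to Rtl1 and in the miR-379/miR-410 cluster, and none of the 13 probes on the Meg3 and Rian sides was above background.

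Among the miRNAs antisense to Rtl1, miR-127, which represses Rtl1 in the mouse placenta, had 110 raw counts in adult MG, 82 in adult neurons, 99 in P11 neurons, 115 at 8 DIV and 396 at 14 DIV. In P11 MG it read 1.20 times the limit, with an exact Poisson interval of 106 to 151 counts. The other samples lay within 1.63 times their limits and the 14 DIV sample stood apart, at 7.50 times its limit. miR-434-3p had 172 counts in adult MG, 157 in adult neurons, 154 in P11 MG, 134 in P11 neurons, 168 at 8 DIV and 387 at 14 DIV. Again only the 14 DIV sample stood apart, with an exact Poisson interval of 349 to 428 counts.

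miR-434-5p, from the other arm of the same hairpin, had 45 counts in adult MG, 27 in adult neurons, 81 in P11 MG, 59 in P11 neurons, 69 at 8 DIV and 96 at 14 DIV, and passed the limit in the last alone. In raw counts the 2 arms were thus both highest at 14 DIV. miR-433 had 105 counts in adult MG, 155 in adult neurons, 143 in P11 MG, 169 in P11 neurons, 104 at 8 DIV and 104 at 14 DIV, and was higher in the neuronal fractions than in MG of the same age.

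miR-136 had 203 raw counts in adult MG, 235 in adult neurons, 108 in P11 MG, 438 in P11 neurons, 314 at 8 DIV and 230 at 14 DIV. Its P11 MG value was just above the limit and its P11 neuron value was the highest of all members outside the 14 DIV sample. miR-431, which promotes axon regeneration in mouse sensory neurons, had 47 counts in adult MG, 37 in adult neurons, 82 in P11 MG, 101 in P11 neurons, 88 at 8 DIV and 88 at 14 DIV. It was above background in the last 3 of these.

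In the miR-379/miR-410 cluster, miR-382 was the most abundant member, with 246 raw counts in adult MG, 369 in adult neurons, 225 in P11 MG, 420 in P11 neurons, 217 at 8 DIV and 533 at 14 DIV. Its raw count was higher in neurons than in MG at both ages and highest at 14 DIV. Scaled to the housekeeping mRNAs it was highest in adult neurons (1168 against 249 at 14 DIV). miR-329, one of the cluster's miRNAs that act in dendrite growth in rat neurons, had 79 counts in adult MG, 66 in adult neurons, 70 in P11 MG, 68 in P11 neurons, 154 at 8 DIV and 496 at 14 DIV. In the fresh samples it was at or close to background, and it was clearly above it in culture only.

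miR-362-3p, the X-linked miRNA with the same seed as miR-329-3p, had 196 counts in adult MG, 68 in adult neurons, 137 in P11 MG, 65 in P11 neurons, 219 at 8 DIV and 66 at 14 DIV. In culture these miRNAs of 1 seed therefore went opposite ways, with miR-329 higher and miR-362-3p lower at 14 DIV. miR-1192, which shares the seed of miR-495-3p, had 13 to 24 counts and was at background throughout.

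miR-495 had 119 raw counts in adult MG, 141 in adult neurons, 125 in P11 MG, 179 in P11 neurons, 57 at 8 DIV and 145 at 14 DIV. It was above background in all samples except 8 DIV. miR-369-3p, one of the cluster's miRNAs that repress N-cadherin in the mouse cortex, had 72 counts in adult MG, 130 in adult neurons, 134 in P11 MG, 183 in P11 neurons, 123 at 8 DIV and 165 at 14 DIV. Its adult MG count was at the limit, the lowest of its 6 values. miR-410, the last miRNA of the cluster, had 48 counts in adult MG, 73 in adult neurons, 73 in P11 MG, 140 in P11 neurons, 108 at 8 DIV and 245 at 14 DIV, so that it was below the limit in both fresh MG samples.

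The miR-376 miRNAs, known for A-to-I editing of their precursors, did not move alike. miR-376c had 121 raw counts in adult MG, 91 in adult neurons, 121 in P11 MG, 182 in P11 neurons, 142 at 8 DIV and 216 at 14 DIV, and was above background in all samples. miR-376a had 46 counts in adult MG, 67 in adult neurons, 157 in P11 MG, 49 in P11 neurons, 125 at 8 DIV and 161 at 14 DIV. It was therefore above background in P11 MG and in both cultures made from P11 retinas, and below it in adult MG and in both neuronal fractions. miR-376b had 71 counts in adult MG, 60 in adult neurons, 96 in P11 MG, 86 in P11 neurons, 61 at 8 DIV and 129 at 14 DIV, and was above background at 14 DIV alone.

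miR-154 had 138 raw counts in adult MG, 89 in adult neurons, 82 in P11 MG and 86 in P11 neurons. In culture it had 92 at 8 DIV and 130 at 14 DIV. Its highest raw count was in adult MG, with a counting interval (116 to 163) that overlaps that at 14 DIV (109 to 154). Scaled to the housekeeping mRNAs it was highest in adult neurons (198 against 99.4 in adult MG). miR-381, which also acts in dendrite growth in rat neurons, had 65 counts in adult MG, 90 in adult neurons, 88 in P11 MG, 121 in P11 neurons, 87 at 8 DIV and 61 at 14 DIV. miR-381 was below the limit in both fresh MG samples and above it in both neuronal fractions. Its near seed neighbour miR-300 had 60 counts in adult MG, 41 in adult neurons, 79 in P11 MG, 95 in P11 neurons, 70 at 8 DIV and 89 at 14 DIV, and was above background in P11 neurons and at 14 DIV.

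Of the weak members, miR-539 had 79 counts in adult MG, 79 in adult neurons, 95 in P11 MG, 112 in P11 neurons, 68 at 8 DIV and 59 at 14 DIV. It was above background in adult MG, both neuronal fractions and 14 DIV. miR-323-3p had 62 counts in adult MG, 67 in adult neurons, 99 in P11 MG, 100 in P11 neurons, 60 at 8 DIV and 39 at 14 DIV, and was above background in P11 neurons alone.

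A further 6 members passed the limit at 14 DIV alone, beside miR-376b and miR-434-5p. miR-134, a regulator of dendritic spine size in rat hippocampal neurons, had 58 raw counts in adult MG, 35 in adult neurons, 56 in P11 MG, 59 in P11 neurons, 51 at 8 DIV and 65 at 14 DIV. For miR-377 the counts were 64 in adult MG, 60 in adult neurons, 34 in P11 MG, 59 in P11 neurons, 70 at 8 DIV and 96 at 14 DIV. miR-134 was nearly level over the samples, while miR-377 had its highest count at 14 DIV.

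miR-379, the first miRNA of the cluster, had 15 raw counts in adult MG, 17 in adult neurons, 30 in P11 MG, 16 in P11 neurons, 36 at 8 DIV and 60 at 14 DIV. For its near seed neighbour miR-411 the counts were 42 in adult MG, 16 in adult neurons, 29 in P11 MG, 30 in P11 neurons, 34 at 8 DIV and 62 at 14 DIV. Both were highest at 14 DIV and lowest in a fresh sample. For miR-541 the counts were 54 in adult MG, 46 in adult neurons, 79 in P11 MG, 75 in P11 neurons, 65 at 8 DIV and 79 at 14 DIV, and for miR-667 they were 28, 19, 36, 24, 31 and 61 in the same samples. The 14 DIV count of miR-541 equalled that of P11 MG, whose limit was higher.

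The pattern of miR-543 was its own. It had 34 raw counts in adult MG, 224 in adult neurons, 1 in P11 MG, 6 in P11 neurons, 1 at 8 DIV and 5 at 14 DIV. Only the adult neuron sample was above background, with an exact Poisson interval of 196 to 255 counts. In the P11 and cultured samples its count was below the lowest negative control, which read 8 to 16 counts there. Only 4 mouse probes had 6 counts or fewer in all of these 4 samples, and miR-543 was the only one of them above background in any sample. Whether the miR-543 probe worked alike in all 6 assays was not tested.

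To compare samples, each locus miRNA was set against the rest of the panel. The log2 ratio of the background-subtracted counts of 2 samples, with values under the limit set to the limit, was taken relative to the median log2 ratio of the other measured mouse miRNAs, here called the panel median. A measured miRNA was above background in at least 1 of both samples. This difference does not change with a constant scaling such as the housekeeping mRNAs. Where only one sample was above background the value is a bound, and a member measured only through its high sample had to differ, so the counts of such members describe and do not support a direction. The intervals given for single miRNAs combine the Poisson bounds of both raw counts, with bounds under the limit also set to the limit. They are wider than 95% only where no bound met the limit. Where a bound did, the interval is cut on that side and can be too narrow. Beside an "at least" value, the interval belongs to the bound and not to the ratio.

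**Figure D3:**
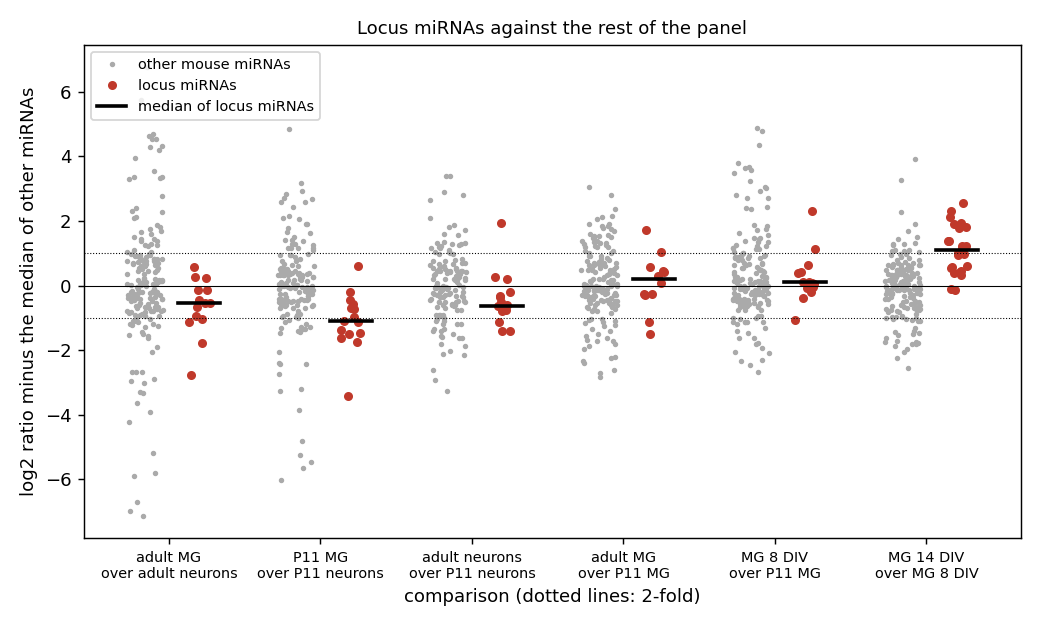
Log2 ratio minus the median of the other measured mouse miRNAs (y axis) in the 6 comparisons (x axis), with locus miRNAs in red, their median as a black bar, other mouse miRNAs in grey and 2-fold differences as dotted lines. The locus median lies below the panel in MG against neurons (-0.55 in adults and -1.09 at P11) and above it at 14 DIV against 8 DIV (1.09).

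The study asked which miRNAs set MG apart from retinal neurons. In adult MG against adult neurons, 14 locus miRNAs were measured and their median was 0.55 below the panel median on the log2 scale (-0.55), with single members from -2.78 to 0.56. At least 2-fold lower were 4 members (28.6%) and at least 2-fold higher were 0, where 18.6% of all measured miRNAs were at least 2-fold lower and 19.6% at least 2-fold higher. The 4 were miR-543, miR-369-3p, miR-433 and miR-381.

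miR-369-3p was 3.46-fold lower in adult MG relative to the panel (interval 1.74 to 4.37), and miR-433 was 2.18-fold lower (1.33 to 3.73). miR-543 was at least 6.85-fold lower (interval 5.84 to 7.97). The interval of miR-381, at least 2.07-fold lower, reached down to 1.08. At the other end, miR-154 was 1.48-fold higher in adult MG (interval 0.846 to 2.67) and miR-127 1.21-fold higher (0.629 to 2.10), both with intervals that include no difference. Over the 10 members above background in both samples the median was -0.50, and 2 of them were at least 2-fold lower and none higher, where 18.4% and 21.1% of all such miRNAs were. The count lower among these was therefore near the panel's share, and the other 2 of the 4 passed the limit in the neurons alone.

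Scaled to the 4 housekeeping mRNAs, as the study did, the panel median itself was -1.56 and the locus median -2.10. On that scale 13 of the 14 measured members were at least 2-fold lower in adult MG, as were most of the other measured miRNAs. That scaling rests on mRNAs that differ between the fractions: the B2m count was 375 in adult MG and 17 in adult neurons, under the limit there, and the Gapdh count was 730 and 1070. With Gapdh alone the scaled locus median turned to 0.28.

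At P11 more of the locus miRNAs lay below the panel in MG against neurons. The 15 measured members had a median of -1.09 relative to the panel (single members -3.42 to 0.62). At least 2-fold lower in P11 MG were 8 members (53.3%) and at least 2-fold higher were 0, against 18.7% and 17% of all measured miRNAs. Of the 8 members above background in both samples, 6 were at least 2-fold lower and none higher, with a median of -1.45, where 22.4% of all such miRNAs were at least 2-fold lower and 17.8% higher. P11 neurons, the sample with the lowest ligation controls, held the higher counts, and P11 MG had the highest background limit of the 6 samples. miR-211 and the red blood cell miRNAs were also higher in the neuronal fractions at both ages. The part of these in the result was not tested.

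miR-136 had the widest gap, 10.7-fold lower in P11 MG than in P11 neurons relative to the panel (interval 6.92 to 12.3). miR-382 was 3.37-fold lower (2.56 to 4.48), miR-376c 3.08-fold (1.89 to 4.73), miR-495 2.85-fold (1.76 to 4.64) and miR-369-3p 2.62-fold (1.65 to 4.26). miR-433 was 2.13-fold lower (1.35 to 3.42). For all 6 of these miRNAs the whole counting interval lay on the lower side. The deposited normalized values of miR-376c were 69 in P11 MG and 144 in P11 neurons. That MG value does not match its raw count, so the size of the miR-376c gap depends on which is used.

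miR-410 was at least 2.74-fold lower and miR-381 at least 2.21-fold lower, both being at background in P11 MG. The miRNAs miR-127 (0.870 of the neuron value relative to the panel, interval 0.456 to 1.45) and miR-434-3p (0.726, 0.443 to 1.19) had intervals that include no difference. The only member on the other side was miR-376a, at least 1.54-fold higher in P11 MG (interval 1.20 to 1.92). Scaled to the housekeeping mRNAs the panel median was -0.06 and the locus median -1.16.

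Between the ages, the neuronal fractions were compared first. In adult against P11 neurons, 16 members were measured, and their median was -0.62 relative to the panel (single members -1.42 to 1.94). At least 2-fold lower in adult neurons were 3 members (18.8%), miR-410, miR-376c and miR-136, and 1 was at least 2-fold higher, miR-543, against 17.3% and 16.7% of all measured miRNAs. The number past 2-fold was therefore near the panel's share. Of the 11 members above background in both samples, 3 were at least 2-fold lower and none higher, against 19.1% and 20% of all such miRNAs.

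miR-410 was 2.67-fold lower in adult neurons (interval 1.41 to 3.64), miR-376c 2.66-fold (1.61 to 4.57) and miR-136 2.19-fold (1.70 to 2.84). miR-543 was at least 3.83-fold higher in adult neurons (interval 3.27 to 4.46), and the next member on that side was miR-434-3p at 1.21-fold (0.776 to 1.93). The direction of the locus in neurons between the ages depended on the scaling: the housekeeping-scaled locus median was 1.08 where that of the panel was 1.70, and it was negative under equal totals (-0.80) and under the ligation controls (-1.70).

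In adult against P11 MG, the 12 measured members had a median of 0.20 relative to the panel (single members -1.49 to 1.71), with 2 at least 2-fold higher and 2 at least 2-fold lower (16.7% each), against 20.7% and 15.6% of all measured miRNAs. Of the 8 members above background in both samples, 1 was at least 2-fold higher and 1 lower, against 23.4% and 16.3% of all such miRNAs. miR-136 was 3.27-fold higher in adult MG (interval 1.97 to 4.02) and miR-154 at least 2.05-fold higher (1.60 to 2.57). miR-376a was at least 2.82-fold lower in adult MG (2.19 to 3.52) and miR-369-3p 2.19-fold lower (1.04 to 2.86). miR-136 thus went opposite ways with age in the fractions, up 1.71 on the log2 scale in MG and at -1.13 in neurons, and the difference was not tested.

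The cultures addressed how MG miRNAs change in vitro. After 8 DIV, against P11 MG, the 14 measured members had a median of 0.10 relative to the panel (single members -1.06 to 2.32). At least 2-fold higher were 2 members (14.3%) and at least 2-fold lower was 1 (7.14%), where 20.9% and 11.2% of all measured miRNAs were. Of the 8 members above background in both samples, 1 was at least 2-fold higher and none lower, against 15.8% and 12.2% of all such miRNAs.

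miR-136 was 4.99-fold higher at 8 DIV relative to the panel (interval 3.16 to 5.87), on 314 against 108 counts. miR-329 was at least 2.20-fold higher (1.77 to 2.69) and miR-495 at least 2.08-fold lower (1.42 to 2.75). The next lowest member was miR-433, at 0.759 of its P11 MG value relative to the panel (0.429 to 1.33). Cultured cells were not sorted, and the cells they had in common with the tdTomato-positive fraction were not counted in these data.

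Between 8 and 14 DIV the locus miRNAs were higher at the later time. The 24 measured members had a median of 1.09 relative to the panel (single members -0.14 to 2.55), with 13 at least 2-fold higher (54.2%) and 0 at least 2-fold lower, against 13.9% and 11.5% of all measured miRNAs. Of the 13 members above background in both cultures, 8 were at least 2-fold higher and none lower, with a median of 1.17, where 13.8% of all such miRNAs were at least 2-fold higher and 11.2% lower. In raw counts, before any subtraction or scaling, 9 of these 13 were higher at 14 DIV, 2 were lower and 2 were equal, while 25.9% of the 147 other miRNAs above background in both were higher. The remaining 11 members were measured through their 14 DIV count alone.

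miR-127 was 5.86-fold higher at 14 DIV relative to the panel (interval 4.08 to 8.73), miR-329 4.98-fold (3.70 to 6.81) and miR-410 3.82-fold (2.52 to 6.01). miR-382 was 3.50-fold higher (2.73 to 4.52) and miR-434-3p 3.43-fold (2.54 to 4.67). Scaled to the housekeeping mRNAs these were 4.33-fold for miR-127, 3.67-fold for miR-329, 2.82-fold for miR-410, 2.58-fold for miR-382 and 2.53-fold for miR-434-3p. The higher level of these 5 was therefore present on both scales (with Actb alone as the scale, the median of all measured locus miRNAs turned to -0.27), and their raw counts were higher although the total of the sample was lower (391133 against 442497).

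miR-495 was at least 4.35-fold higher (3.24 to 5.27) and miR-376b at least 3.78-fold higher (2.46 to 4.65), both from counts under the limit at 8 DIV. Smaller differences were found for miR-154 (2.36-fold, 1.37 to 4.26), miR-376c (2.26-fold, 1.56 to 3.32) and miR-369-3p (2.02-fold, 1.31 to 3.16). miR-136 (0.923, interval 0.702 to 1.21) and miR-381 (0.906, 0.505 to 1.96) were the lowest members, with intervals that include no difference.

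The miRNAs antisense to Rtl1 did not move as a block. miR-127 and miR-434-3p were 5.86-fold and 3.43-fold higher at 14 DIV, miR-433 was 1.47-fold (0.845 to 2.60) and miR-431 1.54-fold (0.803 to 3.04), and miR-136 was at 0.923. The interval of miR-136 does not overlap those of miR-127 and miR-434-3p.

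**Figure D4:**
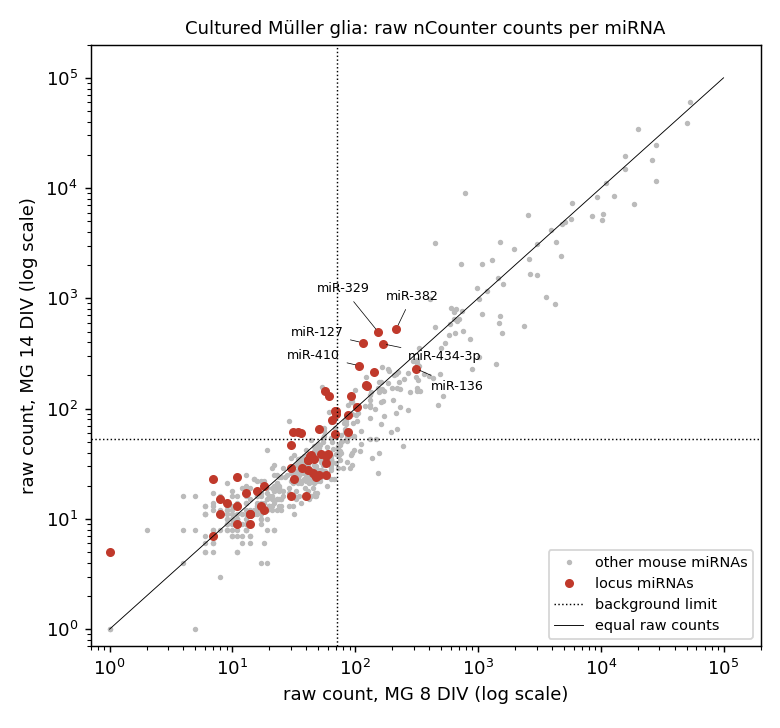
Raw counts of each mouse miRNA at 8 DIV (x axis) and 14 DIV (y axis), both on log scales, with the 62 locus probes in red, the line of equal raw counts and the background limits (70.7 and 52.8 counts) as dotted lines. miR-127, miR-329, miR-382, miR-410 and miR-434-3p lie above the line among miRNAs of like abundance, and miR-136 lies below it with 314 and 230 counts.

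The background differed between the cultures. The mean negative control was 36.0 counts at 8 DIV and 23.9 at 14 DIV, and 11 locus probes were above background at 14 DIV and not at 8 DIV, against 0 the other way. Of the 11, 5 had a 14 DIV count at or under the 8 DIV limit, and with the 8 DIV limit 18 members rather than 24 were above it at 14 DIV. Among the other mouse miRNAs, 11 were above background at 14 DIV alone and 26 at 8 DIV alone. Without any background subtraction, 7 members were at least 2-fold higher at 14 DIV.

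The mesenchymal miRNAs moved with this difference. miR-145 had 788 counts at 8 DIV and 9100 at 14 DIV, miR-143 had 445 and 3167, and miR-199a-3p had 1509 and 3213. In the fresh samples these 3 read 18 to 113 counts. Of the rest of the list, miR-199a-5p had 721 and 2070 counts at 8 and 14 DIV, and miR-214 had 61 and 93. The 5 miRNAs of the list were above background in 0 cases in both fresh MG samples, in 4 at 8 DIV and in all 5 at 14 DIV. In each fresh neuronal fraction 1 was above it, miR-145, with 113 counts in adult and 91 in P11 neurons. Of the myeloid list, miR-223 had 54 counts at 8 DIV, under the limit, and 158 at 14 DIV, above it, while miR-142-3p had 312 and 192 and miR-142-5p had 220 and 155. The neuronal list summed to 2885 and 1688. The part of other cell types in the higher locus miRNAs at 14 DIV was not tested.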

How the data were processed

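miRNAs were quantified by NanoString nCounter in 6 pooled RNA samples. The deposited raw table holds counts per probe, left unnormalized by the authors. The deposited value table holds normalized counts (nSolver, housekeeping mRNAs, negative and positive controls), read here as a score. It has 8 columns because both fresh MG pools stand in 2 data sets. They were counted as 1 sample each. Its values did not match the raw counts for 4 of the 62 members (miR-1197, miR-376c, miR-410 and miR-485) in the adult and P11 MG columns of 1 data set, so the raw table was used. No per-sample column was left out (0 columns).

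The members and lists were chosen with earlier results of these data known. Background was the mean of 8 negative controls, and the limit lay 2 SD above it. Ratios were taken after subtraction, with values under the limit set to it, and read against the median of the other measured miRNAs. Raw counts were given exact Poisson intervals (95%), and a ratio interval took the bounds of both samples, with bounds under the limit set to it. With 1 sample per condition no test was possible. Named miRNAs are the members above background, with the extremes of each comparison in full. The miRNAs outside the locus that are named share a seed with a member or belong to a marker list. Probes named without an arm (22) were given one from the miRBase accession in the probe name. That pairing rests on general knowledge of miRBase and not on a table used here. Sequences and positions came from RefSeq (GRCm38.p6). Code ran in Python 3.11.15 with pandas 2.3.3, numpy 2.4.6 and scipy 1.17.1, and was tested on simulated data.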

Additional observations from a re-analysis of the deposited data

Results flagged for a closer look

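miR-136 in adult over P11 samples had a log2 ratio relative to the panel median of 1.71 in MG and -1.13 in neurons, opposite directions in the fractions. The difference was not tested, since each fraction had 1 pooled sample per age.

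Among the 33 probes for viral miRNAs, which no comparison used, 3 values passed the background limit of their sample. mcmv-miR-m01-2 had 88 raw counts in P11 neurons (limit 87.0). In adult MG (limit 71.7), mcmv-miR-m59-2 had 79 and mghv-miR-M1-7-5p had 91. Many weak locus miRNAs had counts in the same range as these 3 values.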

How the results depend on the processing

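Of the main results recomputed under other settings, 173 values were labelled as close (counts within 1.5 times) and 55 as moved. Of the rescaled values of the housekeeping-scaled medians, 16 had the opposite sign to the main value. The 173 include settings that could change nothing, because they removed no member. These were members taken by coordinate, and leaving out probes that name more than 1 miRNA. Medians that changed sign are also among the 173. Examples are 0.20 to -0.18 in adult over P11 MG and 0.10 to -0.08 in 8 DIV over P11 MG. No paired analysis was possible because each condition had 1 pooled sample, and for the same reason no replicate could be left out. The locus median relative to the panel kept its sign under every setting in MG against neurons at both ages, adult over P11 neurons and 14 over 8 DIV (0.78 to 1.41 in the last), but ranged from -0.18 to 0.24 in adult over P11 MG and from -0.08 to 0.28 in 8 DIV over P11 MG. For P11 MG against neurons it moved to -1.75 without a floor. Every setting kept members above background in 1 sample alone. Over members above background in both samples, the medians under the main setting were -0.50 in adult and -1.45 in P11 MG against neurons. They were -0.60 in adult over P11 neurons and 1.17 in 14 over 8 DIV. The background from the 33 viral probes was chosen after seeing the data. B2m alone was not run where B2m was not above background.

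Members at least 2-fold lower in adult MG against neurons were 8 with a limit of 1 SD, 7 without a floor, and 2 without subtraction, in the deposited values or at 3-fold. At P11, lower members were 4 without subtraction and 3 at 3-fold, and 1 was higher with 1 SD, without a floor or at 1.5-fold. For adult over P11 neurons, lower members were 5 with the highest negative control as limit, 7 without a floor, 1 without subtraction, 9 at 1.5-fold and 0 at 3-fold. For adult over P11 MG, lower members were 0 with 3 SD, without subtraction or at 3-fold, and 1 with the highest negative control or the viral probes, and 1 was higher with 3 SD, without subtraction, at 3-fold or with the viral probes. For 8 DIV over P11 MG, lower members were 3 with 1 SD and 0 with 3 SD, without subtraction or at 3-fold, where 1 was higher. For 14 over 8 DIV, 7 were higher without subtraction or at 3-fold.

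With 1 SD, 22 members were above background in adult MG, 20 in adult neurons, 21 in P11 MG, 24 in P11 neurons and 24 at 8 DIV, and with 3 SD 5 in P11 MG. Without subtraction the locus share was 0.478% in adult MG, 0.978% in adult neurons, 0.800% in P11 MG, 1.61% in P11 neurons, 0.809% at 8 DIV and 1.28% at 14 DIV. Without the 5 most abundant miRNAs it was 0.464%, 1.13%, 0.413%, 1.40%, 0.569% and 1.77% in the same order, and with the viral probes as background 0.135% in P11 MG, 0.661% in P11 neurons and 0.346% at 8 DIV.

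The housekeeping-scaled median of MG over neurons turned positive with Gapdh alone (0.28 in adults, 0.21 at P11) and with Rpl19 alone at P11 (0.0017). That of adult over P11 neurons (1.08) turned to -0.021 with Gapdh alone, -0.015 with the positive controls, -0.80 with equal totals, -0.53 with the 100 most abundant miRNAs and -1.70 with the ligation controls. For adult over P11 MG (0.44) it turned to -0.52 with equal totals and -0.07 with the 100 most abundant miRNAs. For 8 DIV over P11 MG (-0.42) it turned to 0.18 with equal totals, 0.34 with the positive controls, 0.23 with the ligation controls, 0.65 with Actb and 0.47 with Gapdh. For 14 over 8 DIV (0.65) it turned to -0.27 with Actb alone. The order of the locus shares also turned without subtraction, with P11 neurons above 14 DIV. Causes were not tested. Above the background limit in no sample were 36 members, and most of the other 26 lay within a few times the limit. That bounds the precision of the counts. The spread between pools is unknown, with 1 sample per condition.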

Other observations

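The panel also held probes for 4 miRNAs with a gene between Dlk1 and Dio3 that lie outside the chosen numbers. The raw counts of miR-1906 were 141 in adult MG, 121 in adult neurons, 132 in P11 MG and 112 in P11 neurons. At 8 DIV it had 103 and at 14 DIV 77, its lowest raw count. The mean negative control was also lowest at 14 DIV, and these counts are neither background-subtracted nor scaled. miR-432 had 40 to 79 counts, miR-882 had 32 to 94 and miR-3072 had 9 to 16, with their 14 DIV counts at 40, 32 and 14.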
